A study of Mus musculus with 5 samples.

Results

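The comparison described here set tibialis anterior muscle taken 3 days after cardiotoxin against uninjected baseline muscle, over every miRNA that was assayed. It used 1 of the 5 samples of the series, the one labelled day 3, and the baseline values deposited with it. The measurement was TaqMan RT-PCR for 217 mouse miRNAs and 5 control RNAs, with 4 values per assay in each arm, or 1776 values in all. All animals were C57BL/6J males aged 4 to 6 months with no engineered allele named in the labels. The day 3 mice had received cardiotoxin at 2.5 µM, 100 µl into the anterior compartment of both hind limbs, and the baseline mice had received no injection at all, so the effects of the toxin and of the injection itself cannot be told apart. The labels give 4 mice per time point. The 4 values were taken as 4 mice, which the files do not state. If they are technical repeats, the p-values below measure technical spread. Within the series the other arms were days 1, 4, 7 and 21, used here to place day 3 between its neighbours in time. They also entered the fit's estimate of each miRNA's spread, so the SE and p-value of a change draw on all 6 arms.

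Cardiotoxin is a snake venom peptide that lyses muscle fibres and spares many of the satellite cells, the stem cells that rebuild them. A few days after such an injury the dead fibres are being cleared by infiltrating white blood cells while activated satellite cells divide and new fibres have yet to mature. A miRNA is a short RNA that lowers the output of messenger RNAs carrying a match to its seed, the bases near its 5′ end, and several miRNAs are made almost wholly by one cell type. miR-1 and the miR-133 family belong to muscle fibres, miR-489 and miR-31 are known from quiescent satellite cells, and miR-18a is part of the miR-17-92 cluster, which is associated with dividing cells.

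The mature sequences of miRNAs on which the results turn are printed 5′ to 3′ with bases 2 to 8, the seed, in capitals. They were read from RefSeq on build GRCm38.p6. Of the 217 assays 185 could be matched, 46 by their exact name and 139 through the current name of the arm. For an assay named without an arm, the arm was taken from common usage, and the files do not state which arm the assay reads. The first set holds 3 of the 4 miRNAs chosen as markers of this comparison, and miR-1 is named only.
miR-31: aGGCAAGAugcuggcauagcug
miR-489: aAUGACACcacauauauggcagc
miR-18a: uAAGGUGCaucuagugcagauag
The second set is shown because its members share the seed CCCUGAG and moved by very different amounts.
miR-351: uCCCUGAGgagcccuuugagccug
miR-125b-5p: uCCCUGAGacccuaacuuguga
miR-125a-5p: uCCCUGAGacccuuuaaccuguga
The third set gives miR-322 and miR-503, which lie beside miR-351 on the X chromosome and moved in opposite directions relative to the median miRNA.
miR-322: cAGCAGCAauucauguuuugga
miR-503: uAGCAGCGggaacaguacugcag
The next set gives the miR-200 family, in which miR-200a and miR-141 share one seed and miR-200b, miR-200c and miR-429 share another.
miR-200a: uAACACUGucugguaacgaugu
miR-141: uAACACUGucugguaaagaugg
miR-200b: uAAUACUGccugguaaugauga
miR-200c: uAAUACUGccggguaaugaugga
miR-429: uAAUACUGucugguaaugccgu
The last set gives miR-30c with another member of its family, all of whose measured members fell, and miR-223, the myeloid miRNA.
miR-30c: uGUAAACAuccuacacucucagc
miR-30a: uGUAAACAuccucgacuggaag
miR-223: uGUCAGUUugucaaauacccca
The gene of miR-31 lies on the minus strand of chromosome 4, with the mature sequence at chr4:88910614-88910635. The gene of miR-489 lies on the minus strand of chromosome 6, with the mature sequence at chr6:3721922-3721944. The gene of miR-18a lies on the plus strand of chromosome 14, at chr14:115043867-115043889.

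A threshold cycle (Ct) is the PCR cycle at which the product becomes visible, so a lower Ct means more RNA, and 1 cycle is about 1 unit on the log2 scale. Ct values of different assays are not compared. Counting a miRNA as detected where at least 3 of 4 values lay under Ct 35, 213 miRNAs were detected at baseline, 216 at day 3 and 212 in both arms. Only those 212 were tested, with limma. The control RNAs did not move together. Relative to the median miRNA, the change at day 3 was 1.12 on the log2 scale for U6, 1.78 for snoRNA135, 0.35 for U87, -0.30 for snoRNA202 and -1.32 for Y1. Changes are therefore given relative to the median miRNA, and "rose" and "fell" are used only where the test was also passed against U6, at an adjusted p under 0.05. Against U6 a change is lower by 1.12, and a fall of less than 1.32 turns positive relative to Y1. The first of the 4 day 3 values had a U6 level of 0.37, against 1.27 to 1.45 in the other 3.

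At day 3 most of the measured miRNAs differed from baseline. Relative to the median miRNA, 169 of the 212 (79.7%) passed limma's test, 82 of them higher (38.7%) and 87 lower (41%). Scaling to the median change of these same miRNAs largely builds in a near-even split, so the split is no result in itself. It depends on the scaling. Against U6 the test called 153 (72.2%), 41 higher (19.3%) and 112 lower (52.8%), and 26.8% of the calls were then higher against 48.5%. Relative to Y1 78% of the calls were higher, relative to snoRNA135 18.9%, and in raw Ct 64%. Under both the median miRNA and U6, 41 miRNAs rose (19.3%) and 87 fell (41%), or 128 in all (60.4%). Of these 128, 125 had 4 day 3 values that did not overlap the 4 baseline values. The exceptions were miR-103, miR-542-5p and miR-16. Among all 212 the 2 arms did not overlap for 161 (75.9%).

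The changes were large. The median absolute change was 1.53 on the log2 scale, against a median SD within an arm of 0.21 at baseline and 0.26 at day 3, and the median standard error of a change was 0.186. Among the miRNAs that passed under both scalings, 16 rose by over 10-fold and 12 fell by over 10-fold. Of the 43 that did not pass relative to the median miRNA, 31 had a 95% interval lying wholly within 1 log2 unit of no change. Of the same 43, 25 were lower against U6 and 18 passed under neither scaling. A further 41 were higher relative to the median miRNA and did not pass against U6. For these 41 and those 25 the call rests on the choice of scaling.

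**Figure D1:**
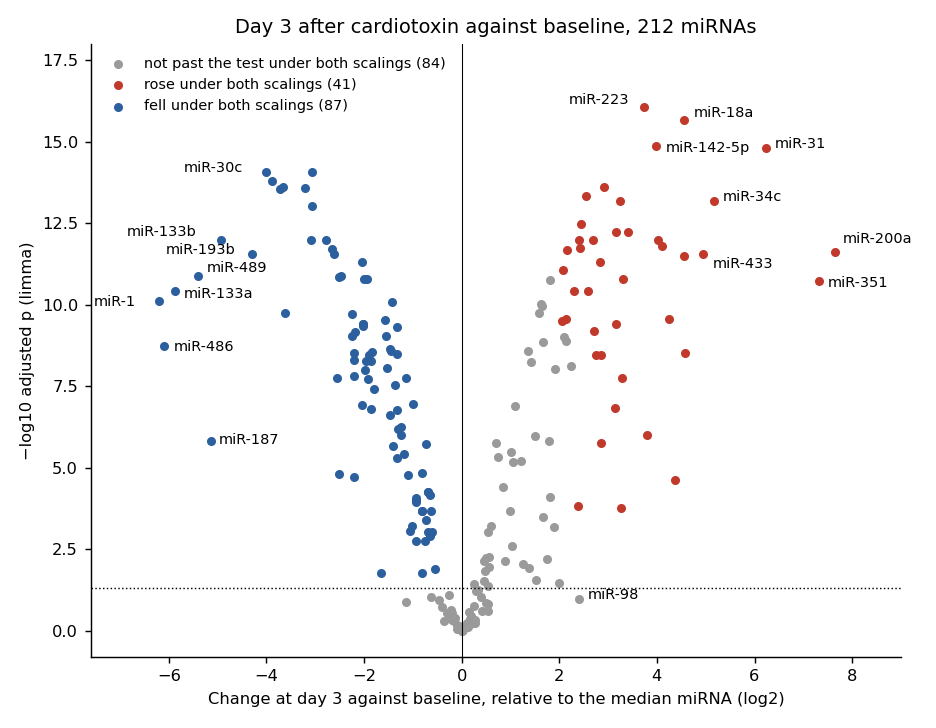
Change at day 3 against baseline relative to the median miRNA (x axis, log2) against −log10 of limma's adjusted p (y axis), 1 point for each of the 212 tested miRNAs, with the dotted line at an adjusted p of 0.05. The 41 red points rose and the 87 blue points fell under both scalings, miR-200a and miR-351 lie farthest right, and miR-1 and miR-486 farthest left.

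The muscle-enriched miRNAs held the 3 largest decreases among the tested miRNAs, those of miR-1, miR-486 and miR-133a. All 4 tested members fell, where 41% of all 212 tested miRNAs did. Their median change was -5.98 relative to the median miRNA, and that of all 212 was -0.05. Against U6 the medians were -7.10 for the list and -1.17 for all. miR-1, which is transcribed in muscle fibres and promotes their differentiation, had Ct values of 13.12, 13.14, 12.94 and 12.48 at baseline and 18.53, 17.42, 18.73 and 18.96 at day 3. Every day 3 value lay more than 4 cycles above every baseline value. miR-1 fell by 6.20 ± 0.47 log2 units (the error is the fit's SE throughout), or 73.4-fold, with an adjusted p of 7.7e-11. miR-133a, made from the same primary transcripts as miR-1, went from 9.33, 9.59, 9.19 and 9.30 to 15.30, 13.05, 14.71 and 14.99 and fell by 5.87 ± 0.43 or 58.4-fold. The arms stood apart, and the second day 3 value had a lower Ct than the other 3.

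miR-133b, which is transcribed with miR-206 from another locus, had Ct values of 14.69, 15.42, 15.12 and 14.62 at baseline and 19.49, 18.41, 19.34 and 19.53 at day 3. It fell by 4.94 ± 0.29, or 30.6-fold. miR-486, which lies in an intron of the ankyrin gene Ank1 and is abundant in muscle and in red blood cells, had 26.55, 27.26, 26.15 and 25.84 at baseline and 32.53, 31.62, 30.51 and 32.65 at day 3 and fell by 6.09 ± 0.57 or 67.9-fold. The second day 3 value had the highest level of miR-1, miR-133a, miR-133b and miR-193b, though not of miR-486. Without it miR-1 fell by 6.59. In whole muscle, fewer cells of a type and less of the RNA per cell cannot be told apart.

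miR-499, encoded in an intron of the slow myosin gene Myh7b, passed below the detection limit. Its Ct values were 27.70, 27.92, 27.44 and 26.76 at baseline and 36.00, 35.97, 36.19 and 37.01 at day 3. With day 3 set to Ct 35 it was at least 305-fold lower relative to the median miRNA and at least 664-fold lower against U6. No other assay was detected at baseline and not at day 3. miR-206 and miR-208, the other muscle miRNAs of the list, were not analysed here.

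The red cell list was measured by 1 assay, miR-451, whose change was 0.12 ± 0.36 relative to the median miRNA and did not pass with either scaling, with an adjusted p of 0.765 and, against U6, 0.0973. Its baseline Ct values ranged from 19.18 to 21.53 and overlapped the day 3 values of 18.70 to 19.85. This value stands beside that of miR-486 because red cells hold both. Its part in the fall of miR-486 was not tested.

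**Figure D2:**
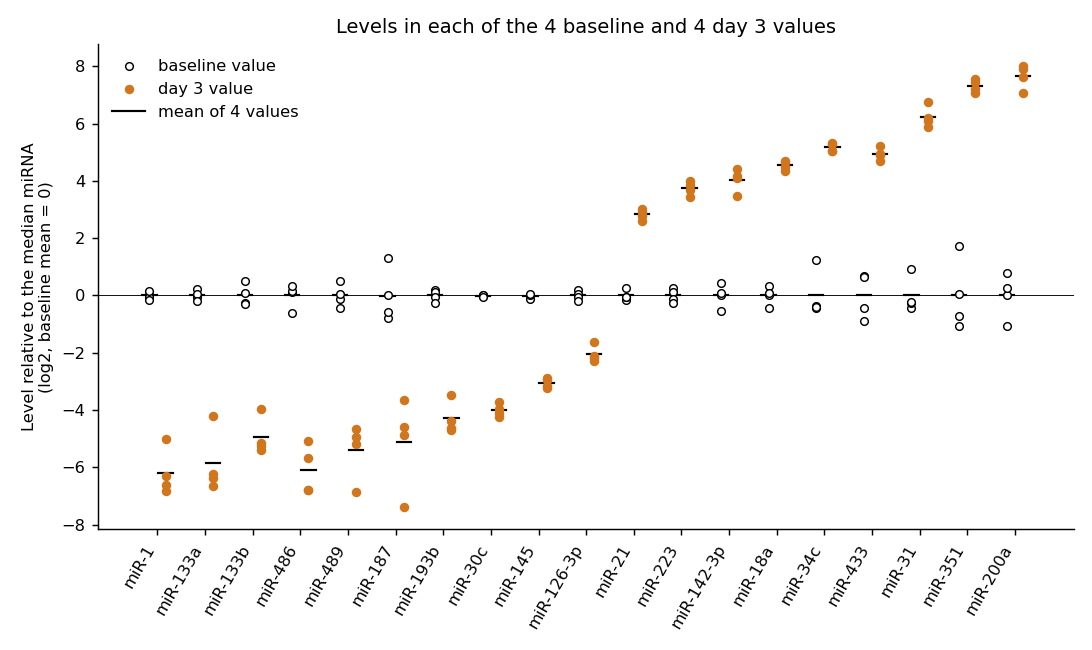
Level relative to the median miRNA (y axis, log2, baseline mean set to 0) in each of the 4 baseline values (open circles) and 4 day 3 values (orange) of 19 miRNAs, with bars at the means. For all 19 the arms do not overlap, and the day 3 values of the muscle miRNAs spread more than those of miR-30c or miR-18a.

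The satellite cell miRNAs split, with miR-31 up and miR-489, miR-195 and miR-497 down. miR-31, which in quiescent satellite cells holds back translation of the myogenic factor Myf5, had Ct values of 27.05, 26.82, 26.50 and 25.21 at baseline and 19.80, 19.13, 19.18 and 19.74 at day 3. All 4 day 3 values lay more than 5 cycles below the lowest baseline value. The rise was 6.23 ± 0.24, or 74.8-fold, with an adjusted p of 1.59e-15, and against U6 it was 5.10. Baseline value 4 was the highest in level, and without it the rise was 6.53.

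miR-489, encoded in an intron of the calcitonin receptor gene Calcr and known to keep satellite cells quiescent by acting on Dek, went the other way. Its Ct values were 26.11, 26.67, 26.19 and 26.55 at baseline and 32.53, 30.53, 30.31 and 30.98 at day 3. The first day 3 value was the lowest in level. miR-489 fell by 5.41 ± 0.37, or 42.7-fold, with an adjusted p of 1.32e-11, and it fell by 4.93 without that value. miR-425, whose seed AUGACAC is the same as that of miR-489, changed by 1.53 ± 0.62 relative to the median miRNA and 0.40 against U6, a difference that did not pass against U6. Without the second baseline value, at Ct 28.30 against 24.94 to 25.77 in the others, the miR-425 change was 0.84 with an adjusted p of 0.167 in limma.

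miR-195 and miR-497, neighbours on chromosome 11 that restrain cell cycle genes, moved little by comparison. miR-195 had Ct values of 17.25 to 17.94 at baseline and 17.89 to 18.42 at day 3, which overlap before scaling and separate after it, and fell by 1.33 ± 0.11. miR-497 fell by 0.55 ± 0.19, with an adjusted p of 0.0132, although in raw Ct its change was 0.16 and relative to Y1 0.77. Of the 4 satellite cell miRNAs 1 rose and 3 fell, against 19.3% and 41% of all miRNAs, with a median change of -0.94.

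Among miRNAs that act in dividing or differentiating myoblasts, 9 were tested, 0 rose and 4 fell, with a median change of -0.40. Over all 212 miRNAs 19.3% rose and 41% fell, so the share that fell was near the background. miR-26a, which acts on the Polycomb gene Ezh2, had Ct values of 15.04 to 15.66 at baseline and 17.22 to 17.61 at day 3 and fell by 2.78 ± 0.16, or 6.87-fold. miR-221 and miR-222, which act on the cell cycle inhibitor p27, were higher by 1.92 ± 0.20 and 1.43 ± 0.14 relative to the median miRNA. Against U6 their changes were 0.79 and 0.31 and did not pass, and relative to snoRNA135 that of miR-222 was -0.35. miR-125b-5p, miR-24 and miR-27b fell by 0.82, 0.73 and 0.68, changes that turn positive relative to Y1, where they were 0.50, 0.59 and 0.64. With quantile scaling the change of miR-24 was 1.92, and in raw Ct that of miR-27b was 0.03.

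The white blood cell miRNAs did not move as one. Of 9 tested members, 4 rose and 2 fell, where 19.3% and 41% of all miRNAs did, and their median change was 1.04 relative to the median miRNA and -0.09 against U6. miR-223, made by neutrophils, monocytes and macrophages, had Ct values of 18.69, 18.78, 18.74 and 18.72 at baseline and 14.59, 14.23, 14.04 and 14.28 at day 3. Both arms were tight and more than 4 cycles apart. The rise was 3.74 ± 0.12, or 13.4-fold, with an adjusted p of 8.67e-17, the smallest of the comparison.

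Both arms of the miR-142 hairpin, which is active across blood cells, rose by nearly the same amount. miR-142-3p went from 21.46, 20.89, 20.14 and 20.37 to 15.60, 16.72, 15.60 and 15.98, a rise of 4.03 ± 0.23 or 16.4-fold. miR-142-5p went from 28.06, 27.80, 27.07 and 27.18 to 22.72, 23.15, 22.45 and 23.01, a rise of 3.99 ± 0.15 or 15.9-fold. In neither assay did the arms overlap. miR-342-5p rose by 3.14 ± 0.39, while miR-342-3p, from the other arm of the same hairpin, was 1.04 ± 0.29 higher relative to the median miRNA and -0.09 against U6.

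miR-155 and miR-150 went down. miR-155, induced in activated macrophages and lymphocytes, had Ct values of 19.66, 19.71, 19.62 and 19.56 at baseline and 20.49, 20.33, 19.86 and 20.53 at day 3. Each day 3 value exceeded every baseline value even before scaling, and miR-155 fell by 1.37 ± 0.15, or 2.59-fold. miR-150, abundant in mature lymphocytes, had 16.36, 16.61, 16.34 and 16.49 at baseline and 17.55, 17.11, 16.46 and 17.11 at day 3 and fell by 1.32 ± 0.21, a change that was 0.00 relative to Y1. miR-146a, a feedback inhibitor of NF-κB signalling, was 0.56 ± 0.19 higher relative to the median miRNA and -0.56 against U6. miR-146b did not pass relative to the median miRNA, at -0.21 ± 0.16, but passed as lower against U6, at -1.34. Neither miR-146 had arms that were apart after scaling.

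miR-147, induced in macrophages by Toll-like receptor signals, was not detected at baseline by the rule, with Ct values of 36.96, 36.55, 33.74 and 34.91. At day 3 it had 28.56, 27.60, 27.15 and 27.62, at least 74.7-fold higher relative to the median miRNA and at least 34.3-fold higher against U6. The first day 3 value was the lowest in level, at 6.27 against 7.34 to 7.43 for the others.

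Markers of other tissues also moved, and they are given here beside the muscle and blood cell results. Their part in those results was not tested. Both smooth muscle miRNAs fell, miR-145 from 14.32, 14.40, 13.96 and 13.79 to 16.37, 16.48, 16.31 and 16.71, or 3.06 ± 0.16, and miR-143 by 2.02 ± 0.17. Both arms of the endothelial miR-126 hairpin fell. miR-126-3p went from 12.88, 12.99, 12.78 and 12.79 to 14.44, 13.97, 14.03 and 14.38 and fell by 2.05 ± 0.13, and miR-126-5p fell by 1.97 ± 0.20. In each of these assays the 2 arms stood apart, as they did for 75.9% of all 212 tested miRNAs. Of all 212, 41% fell.

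Of the 4 fibroblast assays 1 rose and 0 fell (19.3% and 41% over all miRNAs), with a median change of 1.51. miR-21, which is raised in many injured and fibrotic tissues, had Ct values of 19.79, 19.62, 19.31 and 18.88 at baseline and 15.67, 16.28, 15.45 and 16.05 at day 3. It rose by 2.83 ± 0.18, or 7.11-fold. miR-214 was 1.02 ± 0.16 higher relative to the median miRNA, -0.10 against U6 and -0.75 relative to snoRNA135. miR-199a-3p changed by -0.05 ± 0.16 and passed as lower against U6 only, at -1.17. miR-199a-5p was 2.00 ± 0.84 higher relative to the median miRNA and did not pass against U6, at 0.87. Its second baseline value was at Ct 31.81, against 28.94 to 29.69 in the others.

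Of the 4 neuronal assays 3 fell and 0 rose, beside 41% and 19.3% of all miRNAs. miR-128a, which is also found in muscle, went from 22.03, 21.89, 21.60 and 21.46 to 24.47, 24.92, 24.71 and 24.93 and fell by 3.72 ± 0.17 or 13.2-fold. miR-138 fell by 1.83 ± 0.17, and miR-218 by 1.11 ± 0.19, which was 0.21 relative to Y1. miR-9 changed by -0.47 ± 0.27 and did not pass relative to the median miRNA, but passed as lower against U6, at -1.60. miR-194 and miR-192, known from liver and gut, fell by 2.05 ± 0.25 and 1.44 ± 0.14.

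The miR-200 family, best known for holding epithelial cells in the epithelial state, rose in every assay that could be tested. The largest rise among the tested miRNAs was that of miR-200a, from 34.73, 35.77, 34.12 and 33.46 at baseline to 26.73, 26.10, 25.49 and 26.32 at day 3. That is 7.65 ± 0.47 on the log2 scale, or 201-fold, with an adjusted p of 2.44e-12. The baseline values lay at the edge of detection, so the size of the fold rests on late cycles. miR-141, with the same seed, went from 33.57, 33.41, 32.15 and 31.95 to 27.97, 27.42, 27.16 and 27.39, a rise of 4.58 ± 0.44.

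miR-200b and miR-200c rose by 3.29 ± 0.35 and 2.58 ± 0.19. miR-429, transcribed beside miR-200a and miR-200b on chromosome 4, was under Ct 35 in 1 of 4 baseline values and in all 4 at day 3, which ranged from 27.28 to 28.84. It was at least 78-fold higher relative to the median miRNA and at least 35.8-fold higher against U6. miR-203, the skin-enriched member of the epithelial list, fell by 1.19 ± 0.18 relative to the median miRNA, and its change relative to Y1 was 0.13. Over the 5 tested epithelial assays 4 rose and 1 fell, against 19.3% and 41% of all miRNAs, with a median change of 3.29.

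A pair of further assays was detected at day 3 and not at baseline. miR-298, from an imprinted locus on chromosome 2, had baseline values of 39.40, 35.89, 40.00 and 38.49, where 40.00 is the last cycle, and day 3 values of 26.18, 26.58, 26.17 and 26.81. It was at least 232-fold higher relative to the median miRNA and higher by at least 6.73 log2 units against U6. miR-680 was erratic at baseline, with 30.37, 39.01, 38.73 and 34.77, and had 30.31, 29.18, 27.21 and 28.64 at day 3. The arms overlapped, and the bound for miR-680 was 18.9-fold higher relative to the median miRNA and 8.69-fold against U6.

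**Figure D3:**
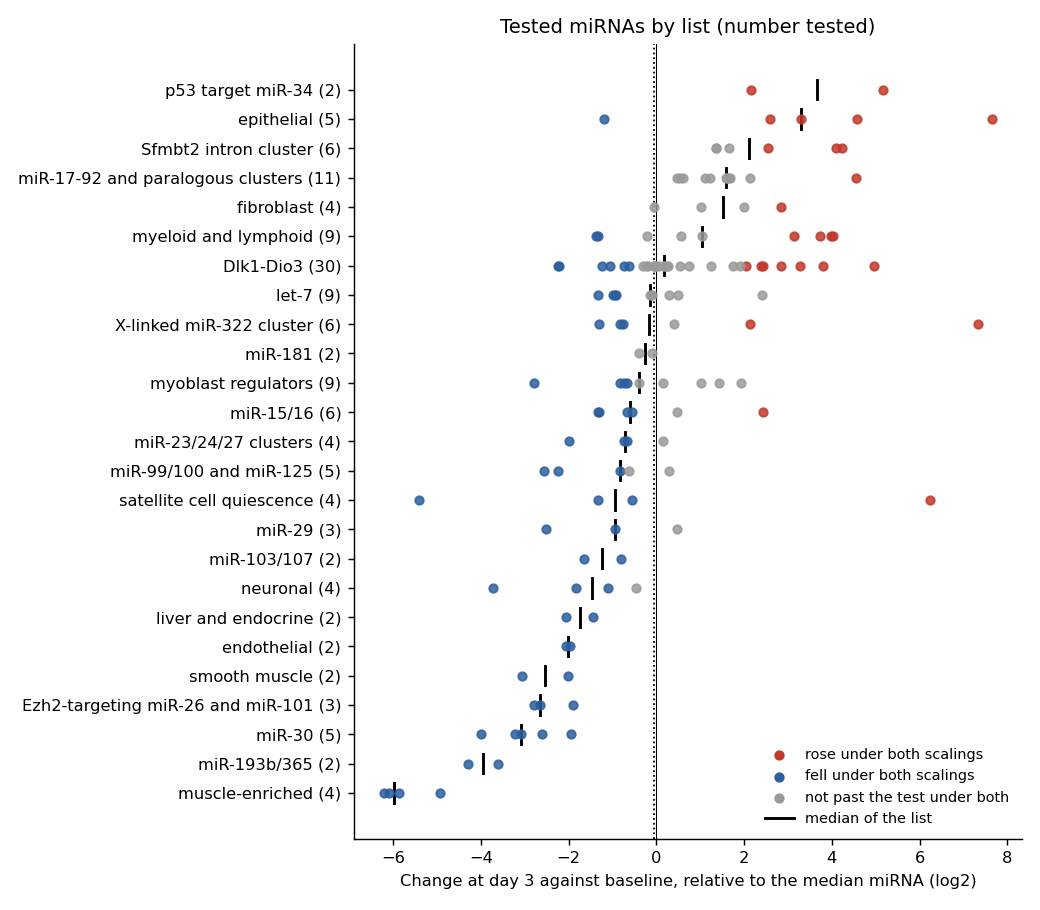
Change at day 3 relative to the median miRNA (x axis, log2) of each tested miRNA, arranged by list (y axis, number tested in brackets), with a bar at each list's median and a dotted line at the median of all 212, -0.05. Red points rose and blue points fell under both scalings. The muscle-enriched and the miR-193b with miR-365 lists lie farthest left, the miR-34 and epithelial lists farthest right.

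Neighbouring miRNA genes often differed, and the widest spread was in the X-linked cluster that runs from miR-322 to miR-450a. The cluster lies on the minus strand of the X chromosome, at chrX:53048154-53054349 for the measured members. Of its 6 assays 2 rose and 3 fell (19.3% and 41% over all miRNAs), and the changes spanned 8.63 log2 units. miR-351 had Ct values of 32.53, 34.90, 34.96 and 33.71 at baseline and 25.86, 25.94, 25.79 and 26.39 at day 3, a rise of 7.32 ± 0.52 or 160-fold, with an adjusted p of 1.88e-11. Its baseline values lay near the limit of Ct 35, so the size of the fold and the span of the cluster rest on late cycles. miR-503, which acts on the cell cycle regulator Cdc25a in muscle cells, went from 26.23, 26.09, 25.66 and 25.83 to 23.44, 23.08, 22.84 and 23.11, a rise of 2.13 ± 0.18. Neither assay's arms overlapped.

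miR-322, the first gene of the cluster and a partner of miR-503 in that pathway, had Ct values of 20.74, 20.41, 20.13 and 20.27 at baseline and 20.93, 21.15, 20.64 and 21.25 at day 3. It fell by 1.31 ± 0.18, a change that was 0.01 relative to Y1. miR-450a-5p and miR-542-5p fell by 0.82 ± 0.18 and 0.75 ± 0.20, which relative to Y1 became 0.50 and 0.57, and miR-542-3p changed by 0.40 ± 0.22 and did not pass. The difference between neighbours needs no scaling, since both are read in the same value. The change of miR-322 minus that of miR-503 was -3.44 ± 0.15, that of miR-351 minus miR-503 was 5.20 ± 0.68, and that of miR-322 minus miR-351 was -8.63 ± 0.69. The differences that involve miR-351 rest in part on its late baseline cycles. These pairs assume that the nth values of 2 assays come from the same RNA. The seeds printed for miR-322 and miR-503 are AGCAGCA and AGCAGCG.

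The miR-17-92 cluster and its paralogues were mostly higher, and only miR-18a passed under both scalings. miR-18a had Ct values of 26.15, 25.68, 25.05 and 25.14 at baseline and 20.12, 20.49, 20.12 and 20.24 at day 3. The 4 day 3 values lay within a single cycle of each other and more than 4 cycles below the baseline. The rise was 4.56 ± 0.15, or 23.5-fold, with an adjusted p of 2.21e-16, and against U6 it was 3.43. Its neighbours within 1 kilobase, processed from the same primary transcript, were higher by less: miR-17 by 1.62 ± 0.13, miR-20a by 1.65 ± 0.13, miR-19a by 2.13 ± 0.19, miR-19b by 1.22 ± 0.19 and miR-92a by 0.60 ± 0.14. The mature sequences of miR-19b and miR-92a also come from a locus on the X chromosome, so their assays do not read this transcript alone.

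All 11 tested members of these clusters passed as higher relative to the median miRNA, against a background of 38.7% higher, with a median of 1.58. Against U6 the median was 0.45 and 1 passed. Relative to snoRNA135 the changes of miR-17, miR-20a, miR-20b and miR-92a were -0.15, -0.13, -0.10 and -1.17.

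In the imprinted Dlk1-Dio3 region of chromosome 12, 30 assays were tested, of which 7 rose and 6 fell, with a median change of 0.18. The share that rose was near the 19.3% of all miRNAs, and the share that fell was below their 41%, a difference that was not tested. miR-433 had Ct values of 33.76, 34.83, 34.98 and 33.31 at baseline and 28.80, 28.81, 27.96 and 28.69 at day 3 and rose by 4.95 ± 0.31, or 30.9-fold. Rises of 3.80 ± 0.53 and 3.27 ± 0.68 were found for miR-665 and miR-370. The sizes for miR-433 and miR-665 rest on late cycles, since their mean baseline Ct was 34.22 and 34.25. miR-434-3p and miR-136 fell by 2.24 ± 0.18 and 2.21 ± 0.24. The region thus held some of the larger changes in both directions.

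By position, 9 assays with a matched sequence form a first stretch that spans chr12:109585789-109595388, and 2 of these rose while 4 fell. Both shares were near those over all 212 tested miRNAs, of which 19.3% rose and 41% fell. miR-127, in the middle of the stretch, changed by 0.05 ± 0.18, and miR-431 was 1.75 ± 0.55 higher relative to the median miRNA but 0.63 against U6. The second stretch holds 19 assays with a matched sequence, at chr12:109709060-109743795, with a median change of 0.25, 4 that rose and 1 that fell. Members of the list without a matched sequence, or outside both stretches, are not in these counts.

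On the X chromosome, 5 assays with a matched sequence lie at chrX:7237683-7248497, within the gene of the chloride transporter Clcn5. miR-501-3p went from 28.61, 28.61, 28.59 and 27.12 to 22.64, 23.03, 22.81 and 23.38 and rose by 4.56 ± 0.29, or 23.6-fold. miR-500, with the same seed, rose by 2.91 ± 0.13, and miR-188-5p by 2.72 ± 0.24. miR-362-3p and miR-532-3p were higher by 2.24 ± 0.23 and 1.80 ± 0.13 and did not pass against U6, with adjusted p of 0.0627 and 0.142. All 5 were thus higher relative to the median miRNA, by amounts that differed.

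The miRNAs of the intron cluster in Sfmbt2, a rodent-specific array, were represented by 6 assays, of which 3 rose and 0 fell (19.3% and 41% over all miRNAs), with a median of 2.10. miR-467d had Ct values of 32.55, 33.87, 31.22 and 32.40 at baseline and 27.63, 27.96, 26.86 and 27.78 at day 3, a rise of 4.24 ± 0.35. miR-467c rose by 4.10 ± 0.25 and miR-467a by 2.54 ± 0.12. The miR-467 family members are near copies of one another, so an assay may read more than one of them.

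**Figure D4:**
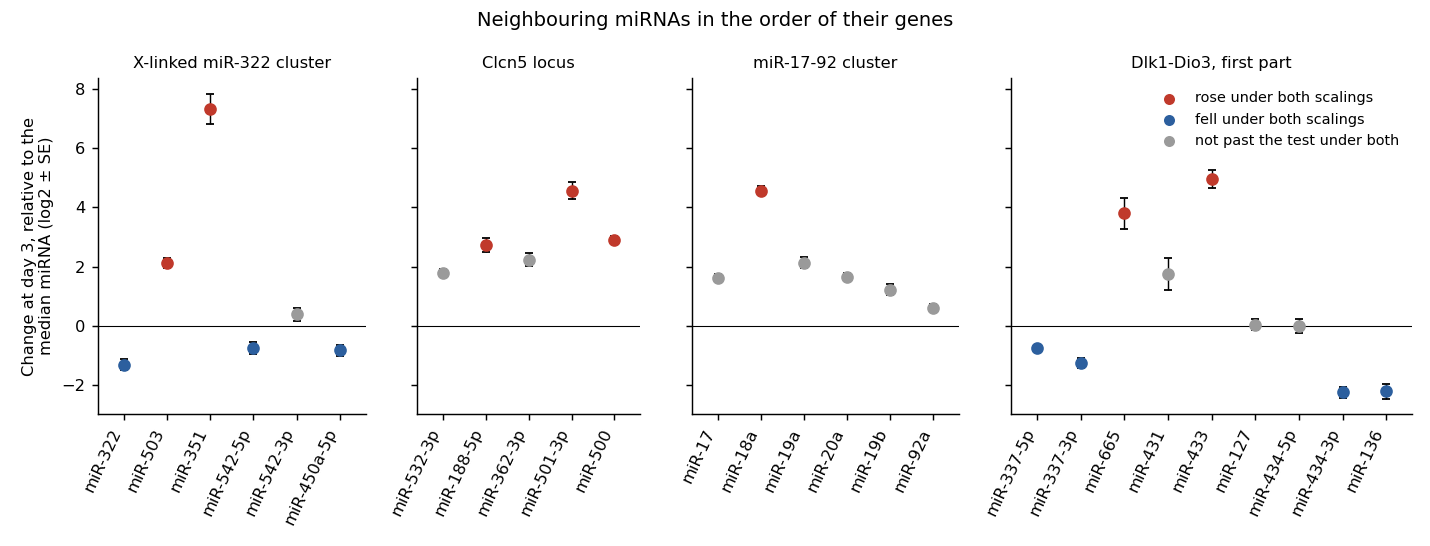
Change at day 3 relative to the median miRNA (y axis, log2, with SE) for miRNAs placed in the order of their genes (x axis) in the X-linked miR-322 cluster, the Clcn5 locus, the miR-17-92 cluster and the first part of Dlk1-Dio3. miR-351, miR-18a, miR-501-3p and miR-433 stand above their neighbours. The blue points of the first panel turn positive relative to Y1, as do those of miR-337-3p and miR-337-5p in the last.

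The miR-34 family, direct targets of p53, rose in all 3 assays, where 19.3% of all miRNAs rose. miR-34c had Ct values of 30.69, 30.59, 30.32 and 28.54 at baseline and 24.29, 24.47, 23.73 and 24.14 at day 3, a rise of 5.17 ± 0.26 or 36.0-fold, with an adjusted p of 6.37e-14. Its baseline value 4 was the highest in level, and without it the rise was 5.58. miR-34a rose by 2.16 ± 0.13 and passed against U6 with an adjusted p of 0.0491. miR-34b-3p, from the transcript that also yields miR-34c, rose by 2.70 ± 0.16. miR-685 rose by 4.37 ± 0.77, with day 3 values of 23.65, 24.94, 23.19 and 23.05 against 28.73, 28.80, 29.99 and 27.63.

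All 5 measured members of the miR-30 family fell, where 41% of all miRNAs did, with a median change of -3.09. miR-30c had Ct values of 13.49, 13.48, 13.14 and 13.08 at baseline and 16.68, 16.50, 16.22 and 16.97 at day 3 and fell by 4.00 ± 0.17 with an adjusted p of 8.17e-15. miR-30b, miR-30e, miR-30a and miR-30d fell by 3.21, 3.09, 2.61 and 1.95, each with an SE of 0.18 or less. miR-384-5p, which carries the same seed, fell by 1.91 ± 0.21.

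miR-193b and miR-365, neighbours on chromosome 16 known from brown fat and muscle, both fell. miR-193b went from 16.91, 16.95, 16.80 and 16.88 to 20.87, 19.85, 20.24 and 20.93 and fell by 4.29 ± 0.27 or 19.6-fold, and miR-365 fell by 3.61 ± 0.29. miR-491 went from 23.06, 23.32, 22.96 and 22.98 to 26.41, 25.93, 25.96 and 26.69 and fell by 3.88 ± 0.17. All 3 assays had arms that stood apart, as they did for 75.9% of all 212 tested miRNAs, of which 41% fell. miR-187 varied most among the large decreases, with 27.84, 29.89, 28.80 and 29.26 at baseline and 32.82, 32.08, 32.80 and 35.77 at day 3. It fell by 5.13 ± 0.74, and by 4.37 without day 3 value 4.

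The 3 measured miRNAs that act on Ezh2 fell, miR-26a by 2.78, miR-101a by 2.66 ± 0.16 and miR-26b by 1.90 ± 0.18. In the let-7 family, whose level rises as many cells differentiate, 4 of 9 fell and 0 rose, a share that fell near the 41% of all miRNAs, and of those 4 let-7e, let-7f and let-7g turn positive relative to Y1. let-7d fell by 1.33 ± 0.17, and let-7f fell by 0.99 ± 0.12 although it was 0.33 relative to Y1. miR-98 changed by 2.40 ± 1.35 and did not pass, with baseline Ct values of 30.20, 29.20, 36.18 and 26.23. Without the third of these its change was 0.45, and without the fourth it was 3.72 with an adjusted p of 0.011. miR-29c, of a family that restrains collagen genes, fell by 2.52 ± 0.43 and miR-29a by 0.94 ± 0.19, the latter 0.38 relative to Y1 and 0.21 with quantile scaling, while miR-29b was 0.46 ± 0.19 relative to the median miRNA and -0.66 against U6.

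miR-103 and miR-107, which share a seed, fell by 0.81 ± 0.30 and 1.65 ± 0.60. The SE of miR-107 draws on all 6 arms, and the SD of its levels was 0.27 at baseline and 0.32 at day 3. The test of miR-103 was lost without the second day 3 value, at an adjusted p of 0.0693, and without the fourth, at 0.0739, and relative to Y1 its change was 0.50. The lists of miR-99/100 and miR-125 (5 tested, 3 fell), of the miR-23/24/27 clusters (4 tested, 3 fell) and of miR-181 (2 tested, 0 fell under both scalings) had no member that rose. Over all 212 tested miRNAs 41% fell and 19.3% rose, and the difference of these small lists from those shares was not tested. Both miR-181 assays were lower against U6 alone. miR-100 and miR-99a fell by 2.55 ± 0.27 and 2.25 ± 0.20, and miR-23b by 1.98 ± 0.21.

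Of the tested assays with a matched sequence, 79 fell into 28 groups that share a seed with at least 1 other assay. Over all 212 tested miRNAs 41% fell and 19.3% rose, and the group counts were not tested against these shares. In 5 groups every member fell, in 4 every member rose, and in 2 there was both a member that rose and a member that fell. One of the 2 was the CCCUGAG group, in which miR-351 rose by 7.32, miR-125b-5p fell by 0.82 (0.50 relative to Y1) and miR-125a-5p changed by -0.63 ± 0.34. The other was AGCAGCA, in which miR-15b rose by 2.43 ± 0.15 and miR-195 fell by 1.33. In the same group miR-322, miR-16 and miR-497 fell by 1.31, 0.68 and 0.55, all 3 positive relative to Y1 and miR-16 also in raw Ct and with quantile scaling, and miR-15a was 0.46 higher relative to the median miRNA and -0.66 against U6.

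The groups whose members all rose were miR-141 with miR-200a, miR-200b with miR-200c, miR-500 with miR-501-3p, and miR-7a with miR-7b. miR-7a and miR-7b rose by 3.40 ± 0.19 and 3.17 ± 0.18. Taken by position, 28 groups of assays with a matched sequence lay within 10000 bases of a neighbour on the same strand. In 5 of them all members fell and in 2 all rose, and 4 held both a riser and a faller. Those counts, too, were not tested against the 41% that fell and 19.3% that rose over all miRNAs. Where a mature sequence is made from several loci, as for miR-16, its value enters each of them.

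Both arms of a hairpin were read by separate assays for 17 hairpins, and their changes could be compared without any scaling. In 8 of the 17 the arms differed at the smallest p that an exact permutation test of 4 against 4 values allows, 0.0286, two-sided. After adjustment over the 17 none was under 0.05, the lowest adjusted value being 0.0608. No pair can go below 0.0286 before adjustment, however far apart its arms are. The lowest adjusted value is thus set by how many pairs reach that floor, and it does not show that the arms moved alike. In the miR-335 hairpin the 3p arm rose by 3.31 ± 0.23 and the 5p arm changed by 0.19 ± 0.27, so the 5p minus 3p difference was -3.12 ± 0.21. Within the values, the Ct of the 3p assay minus that of the 5p assay was 1.53, 1.44, 2.08 and 1.67 at baseline and between -1.66 and -1.0 at day 3.

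In the miR-434 hairpin the 5p arm changed by 0.00 ± 0.22 and the 3p arm fell, a difference of 2.24 ± 0.23. The differences were 2.10 ± 0.36 for miR-342 and 2.04 ± 0.58 for miR-199a, the latter resting in part on a second baseline value of miR-199a-5p at Ct 31.81 against 28.94 to 29.69 in the others. By contrast the arms of miR-126 differed by 0.08 ± 0.16 and those of miR-142 by -0.05 ± 0.17. Those 2 differences lay within their errors.

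Day 3 was set against its neighbours in time with the same fit. Under both scalings, 66 of 213 miRNAs tested were higher at day 3 than at day 1 (31%) and 28 lower (13.1%). From day 3 to day 4, 46 of 216 were higher (21.3%) and 4 lower (1.85%). Each of the 5 muscle-enriched miRNAs had its lowest mean level at day 3 among the arms. From day 1 to day 3 miR-486 fell by 2.45 ± 0.57, and from day 3 to day 4 it rose by 3.52. For miR-133b these steps were -2.02 ± 0.29 and 3.23. For miR-1 the step from day 1 was -1.35 ± 0.47, which passed relative to the median miRNA and not against U6, with adjusted p of 0.0129 and 0.477. miR-499 stood at -2.51 at day 1 and -3.95 at day 4 against baseline, and day 3 was the one of these 3 days at which no value came under Ct 35.

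miR-489 fell by 3.95 ± 0.37 from day 1 to day 3, with an adjusted p of 6.68e-09 in limma, and rose by 2.29 ± 0.37 by day 4. The 4 day 3 levels lay below all the levels of days 1 and 4. Among the miRNAs tested in both steps, miR-187 had the steepest dip. It changed by -4.51 ± 0.74 from day 1 to day 3 and 6.03 ± 0.74 from day 3 to day 4, with adjusted p of 1.23e-05 and 7.18e-07 in limma. miR-499, undetected at day 3, was not tested in these steps. The same steps were -2.23 ± 0.20 and 1.39 ± 0.20 for miR-542-5p. For miR-680 the first step was -5.15 ± 1.21, while the second, 1.40 ± 1.21, did not pass.

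Some of the large rises held or went on at day 4. miR-31 gained 3.93 ± 0.24 between days 1 and 3 and 0.27 ± 0.24 from day 3 to day 4, the latter with an adjusted p of 0.359. miR-351 gained 3.35 ± 0.52 and then a further 4.38 ± 0.52. miR-34c gained 2.00 ± 0.26 and then changed by -0.07 ± 0.26. miR-18a stood 0.65 ± 0.15 above day 1, and its change by day 4 was -0.41 ± 0.15 relative to the median miRNA and 0.04 against U6.

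miR-223 had been higher at day 1. It fell by 2.79 ± 0.12 from day 1 to day 3 and by 1.59 ± 0.12 from day 3 to day 4, and both steps passed under both scalings, with adjusted p of 0.000285 and 0.0462 against U6. The steps of miR-142-3p were smaller, -0.93 ± 0.23 and -0.84 ± 0.23, and neither step passed against U6. miR-200a differed from day 1 by -0.73 ± 0.47, with an adjusted p of 0.159. miR-21 gained 1.40 ± 0.18 from day 1 to day 3.

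**Figure D5:**
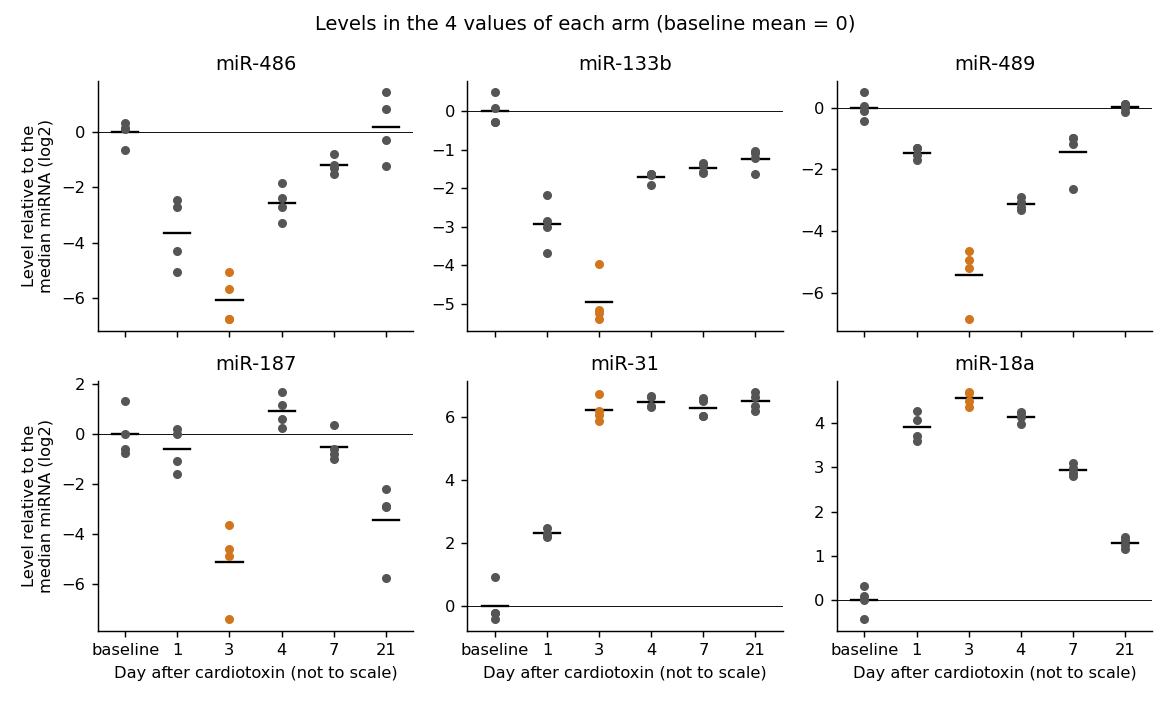
Level relative to the median miRNA (y axis, log2, baseline mean set to 0) in the 4 values of each arm, by day after cardiotoxin (x axis, not to scale), with bars at the means and day 3 in orange. miR-486, miR-133b, miR-489 and miR-187 have their lowest mean at day 3, while miR-31 reaches at day 3 the level it keeps at days 4, 7 and 21.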

How the data were processed

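Total RNA of tibialis anterior muscle, with an integrity number above 9, was isolated with a miRNeasy kit and read by TaqMan assays for 40 cycles on an Applied Biosystems 7900HT, per the labels' protocols. What the authors deposited was raw Ct values without normalization, in a unit other than counts: 222 assays in 888 lines, with a column for the day and one for the baseline, and baseline values identical in the 5 files. The Ct threshold, RNA input and assay release were not stated. There is no sequencing depth, and 4 values per arm limit the precision.

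Minus Ct was scaled in each value position by the median change of 205 miRNAs under Ct 35 in all arms, or by U6. Values at Ct 40 were left out. A miRNA was tested where at least 3 of 4 values were under Ct 35 in both arms, and one detected in a single arm is given as a bound with the other arm at Ct 35. All 6 arms entered one fit per miRNA (limma 3.58.1, lmFit and eBayes, R 4.3.3), two-sided, with Benjamini-Hochberg adjustment over the miRNAs tested, after checks on simulated data. Exact permutation tests used SciPy 1.17.1.

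The members and lists were chosen with earlier results of these data known, so no list is independent evidence of its direction. The rule for names took the 10 largest changes each way that passed under both scalings, the 4 markers, the miRNAs detected in one arm, all members of the muscle, satellite cell, blood cell, epithelial and X-linked lists, 3 members of other lists, mixed seed groups or hairpins, and the 6 miRNAs farthest from days 1 and 4. A further 26 were named after their values were seen, among them miR-335, miR-434, miR-425, miR-431, miR-127, miR-136, miR-7, miR-500, miR-188-5p, miR-362-3p, miR-532-3p, miR-34b-3p, miR-384-5p and members of miR-17-92 and miR-30, and further miRNAs are named only as members of a list or group. Alternatives covered the normalizer, the Ct limit, undetermined values, the arms in the fit, limma-trend, a size threshold, each value left out and a replicate block.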

Additional observations from a re-analysis of the deposited data

Results flagged for a closer look

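Among 229 sets of 4 values of named assays in the 2 arms, 11 held a value far from the other 3, by a test that marks about 1 in 20 sets by chance. Levels are log2 relative to the median miRNA, with the baseline mean at 0. At baseline the second value of miR-199a-5p was -1.78, against 0.38 to 0.79 in the others, the fourth value of miR-34c was 1.23, against -0.44 to -0.38, and the fourth value of miR-31 was 0.92, against -0.44 to -0.23. At day 3 the first value of miR-147 was 6.27, against 7.34 to 7.43, and the first value of U6 was 0.37, against 1.27 to 1.45. Relative to U6 without that first day 3 value, the test called 34 miRNAs higher, against 41 with it. The others were small in size: miR-34a at baseline (-0.42), miR-194 at baseline (-0.20), miR-195 at baseline (-0.16), miR-128a at baseline (-0.07), miR-322 at day 3 (-1.44) and miR-450a-5p at day 3 (-0.62). Of the 4 such values at day 3, 3 were the first value.

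The 6 miRNAs picked as farthest from days 1 and 4 were checked by limma's test of each difference under both scalings. The level at day 3 lay apart from both days for miR-187 (-4.51 from day 1 to day 3 and 6.03 from day 3 to day 4), miR-486 (-2.45 and 3.52), miR-489 (-3.95 and 2.29), miR-133b (-2.02 and 3.23) and miR-542-5p (-2.23 and 1.39). miR-680 differed from day 1 only, by -5.15. The list is not complete, since miRNAs outside the 6 passed both steps too, such as miR-133a (-2.81 and 1.35) and miR-138 (-2.16 and 1.29).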

How the results depend on the processing

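The normalizer moved the counts most among the alternatives tried. By median-miRNA scaling 82 miRNAs were higher and 87 lower. The count of higher ones was 41 relative to U6, 34 relative to U6 without the first day 3 value (an alternative chosen after seeing the data), 35 relative to snoRNA135 and 124 relative to Y1. The count of lower ones was 150 relative to snoRNA135 and 35 relative to Y1. Leaving out each value in turn gave 76 to 83 higher and 87 to 88 lower, and 34 to 40 that rose and 87 to 88 that fell under both scalings. Asking for a change of at least 2-fold left 67 higher and 67 lower. Ct limits, limma-trend, undetermined values at 40 and the fit of only 2 arms kept both counts within 1.5 times. A replicate block for the value position gave 81 higher and 88 lower. Deviations of same-numbered values correlated by -0.28, 0.06, -0.17 and 0.16 between the arms, so the numbers do not pair the samples.

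Among the miRNAs followed through the alternatives, those given next changed sign and passed the test under the median-miRNA scaling, under the alternative, or under both. Sign changes of miRNAs that passed under neither, and of miRNAs not followed, are not listed. With quantile scaling, miR-125a-3p was -0.29, miR-542-3p -0.52, miR-29a 0.21, miR-146b 0.52, miR-199a-3p 0.63, miR-16 0.70 and miR-24 1.92. In raw Ct, miR-16 and miR-27b were 0.03, miR-497 0.16, miR-146b 0.50, miR-199a-3p 0.66 and miR-434-5p 0.71. Relative to U6, miR-342-3p was -0.09, miR-214 -0.10, miR-92a -0.52, miR-146a -0.56, miR-125a-3p -0.60, and miR-15a and miR-29b -0.66. Relative to U6 without the first day 3 value, these were -0.33, -0.36, -0.63, -0.84, -0.86, -0.85 and -0.83, and miR-127 was -1.42. Relative to Y1, miR-150 was 0.00, miR-322 0.01, miR-203 0.13, miR-218 0.21, let-7f 0.33, miR-29a 0.38, miR-103, miR-125b-5p and miR-450a-5p 0.50, miR-542-5p 0.57, miR-24 0.59, miR-16 and miR-27b 0.64, miR-497 0.77, miR-181a 0.92, miR-146b 1.11, miR-199a-3p 1.27 and miR-434-5p 1.32. Relative to snoRNA135, miR-431 was -0.03, miR-20b -0.10, miR-20a -0.13, miR-17 -0.15, miR-425 -0.25, miR-222 -0.35, miR-342-3p -0.74, miR-214 -0.75, miR-92a -1.17, miR-146a -1.22, miR-125a-3p -1.25, miR-15a and miR-29b -1.32, miR-542-3p -1.37, miR-335-5p -1.59, miR-451 -1.65 and miR-127 -1.72. Each normalizer shifts all changes by 1 amount, except quantile scaling, which replaces each value according to its rank among the miRNAs. The setting without the first day 3 value also leaves out a value, so its shifts differ between miRNAs.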
